A study of Glycine max with 3 samples.

Results

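The precursor hairpins of known miRNAs in soybean leaf are described here, each taken as 1 distinct combination of chromosome, start, end and strand in the authors' table of known miRNAs. There were 344 such hairpins, of 348 in all; the other 4 carried miRNAs that the authors listed as new. The leaves came from vegetable soybean (Glycine max) 'Taiwan 75', a soybean harvested for its immature seed. The chilled library was made from plants held at 4 °C for 24 h from the stage of 1 true leaf. The control library was made from plants that stayed at 25 °C in the day and 17 °C in the night, under the same light of 600 μmol per square metre per second for 12 h. Leaves of 3 replicates were pooled into 1 library in each condition, so no difference between the chilled and control libraries has a replicate check and none was tested. A degradome library, which captures the 5′ ends of cut messenger RNAs, was made from both kinds of leaves mixed; its label gives another stage, 10 days after pollination. In such leaf RNA, a change in the number of producing cells and a change in RNA per cell cannot be told apart.

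A plant miRNA starts as a transcript that folds back on itself into a stem-loop. A Dicer-like enzyme cuts the stem into a short duplex whose strands each overhang by a short 3′ end, and 1 strand is usually kept by an Argonaute protein while the other is degraded. Because both strands can be sequenced, the hairpin's 5′ and 3′ arms each leave a count of reads, and the division of reads between them is a trace of strand choice and of stability. In soybean, whose genome holds many duplicated segments, most old miRNA families have several hairpins, and several precursors can give the same mature sequence.

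The table held 583 entries with content, for 378 distinct mature sequences of 133 families. Over these entries the reads summed to 5655265 in the chilled library and 4168364 in the control library. Of the 378 sequences, 105 were listed at more than 1 hairpin, and 93 of these had the same reads at every one. Reads were whole numbers in both libraries for 219 of the 273 sequences at 1 hairpin and for 14 of the 105 at more than 1, within 0.01 of a read. Multiplied by the number of hairpins that list the sequence, reads were whole for 64 of those 105. No source used here says whether such an entry holds all of a sequence's reads or a share of them. Such a sequence occurred in 223 of the 344 hairpins, so the values of these hairpins are not independent of each other. A hairpin is named here by its listed arm sequences, 5′ arm first.

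The following 7 hairpins carry the results on read division given later, and are printed 5′ to 3′ from the authors' table with the listed arm sequences in capitals. Coordinates are as deposited, on a genome build that no source used here names. miR3522 had the most reads of all hairpins. miR408a, MIR1507a, miR397a, miR156a with MIR156o-p3, and miR5767 were among those whose arm division differed most between the libraries. In miR4416c the strand with fewer reads is the one named as the miRNA.
miR3522 + MIR3522-p3 (chr15:4337686-4337777, plus strand): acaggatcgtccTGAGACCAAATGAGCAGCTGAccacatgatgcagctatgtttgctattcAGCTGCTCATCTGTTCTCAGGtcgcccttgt
miR408a-5p + miR408a-3p (chr2:837414-837546, plus strand): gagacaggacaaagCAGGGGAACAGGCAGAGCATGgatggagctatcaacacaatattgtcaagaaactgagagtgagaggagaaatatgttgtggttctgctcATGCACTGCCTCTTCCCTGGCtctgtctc
MIR1507a-p5 + miR1507a (chr13:27036567-27036673, plus strand): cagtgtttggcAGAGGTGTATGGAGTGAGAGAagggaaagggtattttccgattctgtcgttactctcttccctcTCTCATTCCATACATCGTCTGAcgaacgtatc
miR397a + miR397b-3p (chr13:35595158-35595279, minus strand): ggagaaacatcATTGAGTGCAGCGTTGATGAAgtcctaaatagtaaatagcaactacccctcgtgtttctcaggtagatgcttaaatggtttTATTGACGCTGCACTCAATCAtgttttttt
miR156a + MIR156o-p3 (chr17:37469976-37470065, plus strand): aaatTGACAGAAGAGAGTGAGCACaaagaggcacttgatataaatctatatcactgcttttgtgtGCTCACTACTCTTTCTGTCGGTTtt
miR5767 + MIR5767-p3 (chr16:30784546-30784656, minus strand): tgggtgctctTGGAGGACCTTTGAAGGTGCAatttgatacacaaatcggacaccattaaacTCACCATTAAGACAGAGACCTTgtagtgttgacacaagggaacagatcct
miR4416c + MIR4416c-p3 (chr2:27334573-27334768, minus strand): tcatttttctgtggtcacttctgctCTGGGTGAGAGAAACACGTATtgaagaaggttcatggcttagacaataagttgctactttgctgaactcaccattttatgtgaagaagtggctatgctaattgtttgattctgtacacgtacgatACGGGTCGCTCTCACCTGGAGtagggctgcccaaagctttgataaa

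The hairpins were spread over all 20 chromosomes, with between 10 and 28 on each and a median of 16.5. Chromosome 2 had the most, 28 hairpins of 22 families, followed by chromosome 8 with 26. Chromosomes 3 and 12 had the fewest, with 10 each. A further 2 hairpins lay on unplaced scaffolds, 1 of them a miR166 precursor with 3835 reads in the chilled and 3357 in the control library. The strands were used about equally, with 169 hairpins on the plus and 175 on the minus strand.

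**Figure D1:**
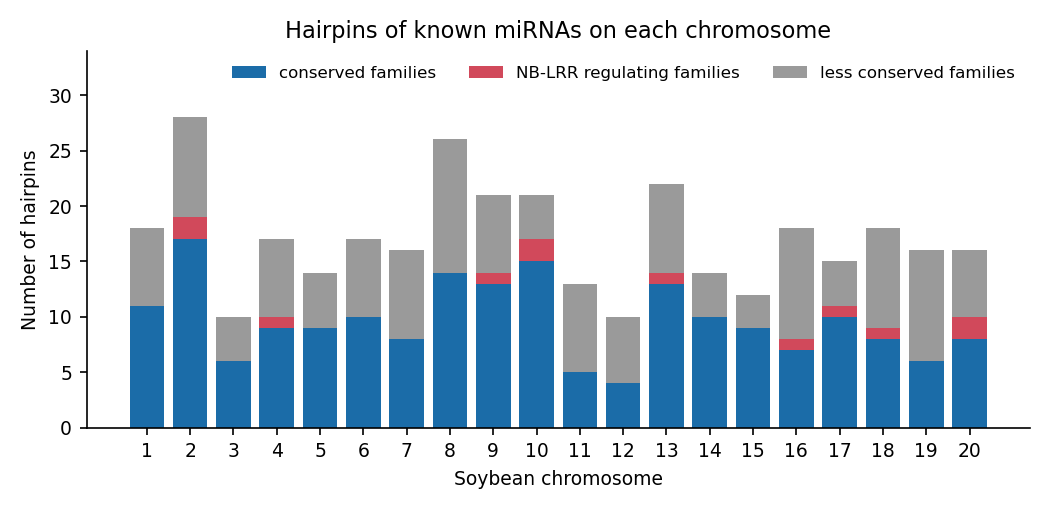
Number of hairpins of known miRNAs on each of the 20 soybean chromosomes (x axis), with the bars split into conserved families, families that target NB-LRR disease resistance genes, and the other, less conserved families. Counts run between 10 and 28, and the 2 hairpins on scaffolds are left out.

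A few families held most of the hairpins. While 83 of the 133 families had a single hairpin, the 17 families with at least 5 held 185 of the 344. miR156, which targets SPL transcription factors, was the largest with 24 hairpins on 15 chromosomes. miR171, which targets GRAS factors, had 20 hairpins on 12 chromosomes, and miR166, which targets HD-ZIP III factors, had 19 on 14. miR169, which targets NF-YA subunits, had 16 on 7 chromosomes. The 9 hairpins of miR319 lay on 9 different chromosomes. By a list of family groups, 193 hairpins belonged to 23 families conserved in flowering plants, 12 to the 5 families that target NB-LRR resistance genes, and 139 to 105 less conserved families.

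Many hairpins had a near copy elsewhere. The closest other hairpin was at least 80% identical over the full sequence for 136 of the 344, and at least 90% for 53. That closest hairpin was of the same family for all 136, and on another chromosome for 127. Near copies were listed for 112 of 193 hairpins of conserved families, 4 of 12 of the NB-LRR-regulating families and 20 of 139 of the less conserved ones. miR168a, which targets the Argonaute gene AGO1, shows the pattern, with hairpins on chromosomes 9 and 1 that were 96.8% identical.

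Hairpins rarely lay near each other. Within 10 kb on the same strand, 38 hairpins (11.0%) formed 19 pairs on 14 chromosomes, and no group was larger than a pair. Of the 19 pairs, 13 joined members of 1 family. In 7 pairs the hairpins were under 300 nt apart or overlapped. A limit of 3 kb left 18 hairpins with a neighbour, while 50 kb gave 74.

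The sequences of a closely spaced pair and of a nested pair are shown after their values. On chromosome 1, miR2119, which targets alcohol dehydrogenase transcripts in legumes, lay 135 nt from miR398a, which targets copper superoxide dismutase transcripts; in common bean a single dicistronic precursor is known to carry both. miR2119 had 21 reads in the chilled and 7 in the control library, and miR398a had 4.17 in the chilled and 6.33 in the control library. The ratio of miR398a had a counting interval on both sides of 0, so a difference in direction between these neighbours was not detectable at this depth. On chromosome 9, the hairpin listed for miR159d lay inside the hairpin of miR159a, whose mature strand targets GAMYB-like transcription factors. The arms listed for the longer stem had 614.5 reads in the chilled and 615.5 in the control library. Both arm sequences were also listed at a miR159a hairpin on chromosome 7, so these reads cannot be assigned to either hairpin. The inner arms had 39 reads in the chilled and 168.5 in the control library. Both inner sequences also occur within the chromosome 7 hairpin, so those reads cannot be placed either. The log2 ratio of chilled to control was -0.25 (-0.41 to -0.09) for the outer and -2.33 (-2.89 to -1.84) for the inner arm sequences. For miR398a the capitals mark the stretch capitalised by the authors, which is not identical to the listed mature sequence; in the other hairpins they mark the listed sequence itself.
miR2119 (chr1:7214478-7214613, minus strand): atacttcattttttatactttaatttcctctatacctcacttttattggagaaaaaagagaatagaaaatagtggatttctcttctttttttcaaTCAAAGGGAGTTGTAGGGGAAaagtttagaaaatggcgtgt
miR398a (chr1:7214749-7214864, minus strand): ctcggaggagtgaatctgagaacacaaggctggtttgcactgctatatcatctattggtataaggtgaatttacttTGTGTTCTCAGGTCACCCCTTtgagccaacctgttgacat
miR159a-5p + miR159a-3p (chr9:40267013-40267226, plus strand): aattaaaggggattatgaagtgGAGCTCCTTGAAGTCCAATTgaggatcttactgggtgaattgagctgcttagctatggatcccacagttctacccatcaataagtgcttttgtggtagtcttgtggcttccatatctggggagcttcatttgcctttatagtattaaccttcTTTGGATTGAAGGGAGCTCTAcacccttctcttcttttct
miR159d + MIR159d-p3 (chr9:40267067-40267169, plus strand): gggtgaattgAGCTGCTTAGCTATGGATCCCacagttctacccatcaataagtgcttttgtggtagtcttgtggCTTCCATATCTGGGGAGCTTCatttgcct

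A pair of miR171 hairpins occurred at separate places with the same arm sequences. On chromosome 4, MIR171b was followed by MIR171r after 221 nt on the plus strand. On chromosome 6, MIR171h was followed by MIR171s after 169 nt on the minus strand, in the same order along the transcript. At each place, the first hairpin had 57 reads in the chilled and 9.25 in the control library, since the same sequences are listed at both. The second hairpin had 22 reads in the chilled and 20.25 in the control library, and its copies on the 2 chromosomes were 95.1% identical. The log2 ratio of chilled to control was 2.27 (1.39 to 3.62) for the first and -0.12 (-1.05 to 0.84) for the second, with exact 95% intervals of counting error.

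A pair of miR166 precursors on chromosome 4 was 147 nt apart, with 6382 and 7403 reads in the chilled and 5131 and 6490 in the control library. Both list miR166a-3p, a sequence listed at 14 hairpins, so their values are not separate evidence. On chromosome 16, miR4409 lay 68 nt from miR5372; miR5372 had 2701 reads in the chilled and 2367 in the control library. On chromosome 12, MIR5040 lay 97 nt from miR4348, and neither exceeded 5 reads in either library. At longer distances, miR482b lay 4298 nt from miR2118a on chromosome 10. These belong to a superfamily that targets NB-LRR transcripts. miR482b had 251.5 reads in the chilled and 164.5 in the control library, and miR2118a had 8546 in the chilled and 5301 in the control library. After scaling for depth, the log2 ratio of chilled to control was 0.36 (0.08 to 0.67) for miR482b and 0.44 (0.39 to 0.49) for miR2118a, both under 2-fold. Each of these hairpins lists a sequence that was also listed at another hairpin. The other pairs, between 2000 and 9093 nt apart, were miR5678 with miR5370, neighbours of the miR395, miR530, miR169, miR5038, miR399 and miR1512 families, and miR1535a with a miR160 precursor. Sulfate-responsive miR395 and phosphate-responsive miR399 made 5 of these pairs, all with under 3 reads per hairpin in each library.

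On opposite strands, 4 pairs of hairpins overlapped. On chromosome 10, the hairpin of miR167e with MIR167f-p3 overlapped that of MIR167h-p5 by 89 nt. The first had 13362 reads in the chilled and 10825 in the control library, and the second 0.5 in each. On chromosome 20 the same miR167e sequence was listed opposite MIR167i-p5, with a 97-nt overlap. On chromosome 19, miR1535a was listed on both strands, with 292.5 and 301.5 reads in the chilled and 124.5 and 143.5 in the control library. The remaining pair, of miR1523 on chromosome 2, had at most 3 reads per hairpin in either library. The labels name a small RNA library kit, and no source used here says how reads were assigned between strands.

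The deposited coordinates spanned between 55 and 375 nt per hairpin, with a median of 118 nt (95% interval of the median 114 to 122). The deposited hairpin length was shorter, with a median of 107 (102 to 112) and a range of 17 to 373. It equalled the longest closed stem-loop of the deposited structure in 319 of the 344 hairpins, and the full span in 73. The longest was that of miR167c on chromosome 7, with a length of 373, which was also the 4th hairpin by reads. The shortest deposited lengths were 17 for MIR319f-p5 and 18 for MIR5674a, although these spanned 95 and 208 nt. The shortest span, 55 nt, was that of miR5373 on chromosome 16.

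The folding free energy (dG), in which a lower value is a more stable fold, had a median of -49.4 (-50.8 to -47.9). Refolding each sequence with RNAfold, in kcal/mol, gave values within 1 of the deposited ones for 206 of the 344 hairpins. RNAfold minus deposited ran between -7.7 and 5.3, with a Spearman rho of 0.99 between the 2 sets of values. The lowest dG was -189 for MIR4366 on chromosome 5, a stem-loop of 262 nt with 13 reads in the chilled and 3 in the control library. MIR1524 followed with -145.8. The highest was -12.5 for the miR5761a hairpin on chromosome 3. Longer spans had lower energies, with a Spearman rho of -0.69 over the 344 hairpins, which include copies of 1 family and whose energies sum over the bases. The energy per base went the other way and was less negative in longer spans, with a Spearman rho of 0.28.

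**Figure D2:**
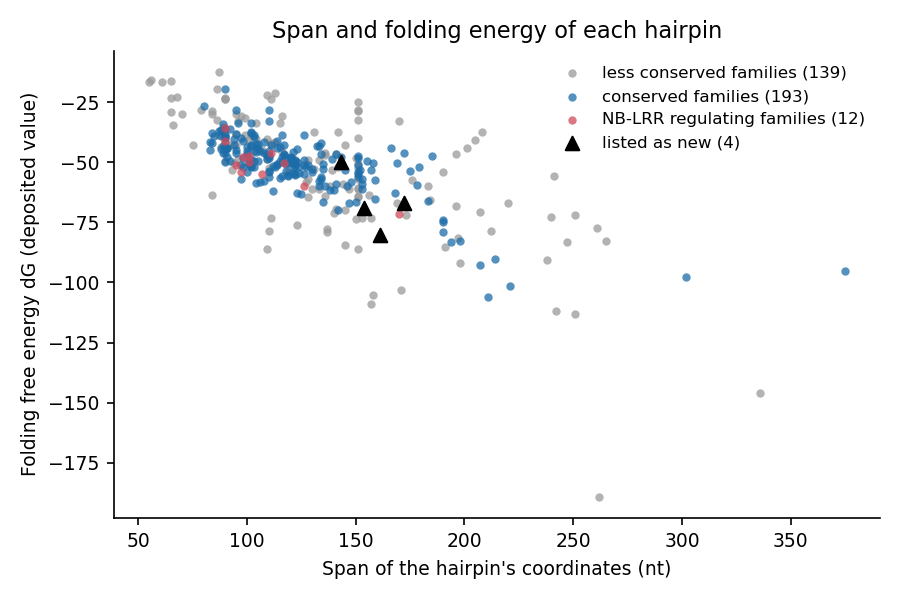
Span of each hairpin's coordinates in nt (x axis) against its deposited folding free energy dG (y axis). Circles are the 344 hairpins of known miRNAs, coloured by family group, and black triangles are the 4 hairpins listed as new. The lowest energy, -189, belongs to MIR4366 with a span of 262 nt.

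The minimal folding free energy index (MFEI), which corrects the energy for length and GC content, had a median of 1.0 with a range of 0.4 to 2.0. It equalled -100 × dG divided by span and by GC percent, to its 1 decimal, for all 344 hairpins. An MFEI of at least 0.85 was found in 262 hairpins (76.2%), and 21 (6.10%) were under 0.7. The lowest index, 0.4, was that of miR5761a on chromosome 3. The highest, 2.0 and 1.9, were those of a pair of miR5380a hairpins on chromosome 11 that were 97.8% identical and lay on opposite strands, and of MIR4366. GC content had a median of 41.45% (40.5 to 42.4) and ran between 19.6% for miR6299 and 76.2% for miR5783. Next to miR5783 came the precursors of miR168a, with 62.4% and 61.8%.

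GC content was lowest in the less conserved families. Median GC content was 43.1% (42.3 to 44.0) in conserved families, 43.4% (36.7 to 46.2) in NB-LRR-regulating families and 37.9% (36.8 to 39.4) in less conserved families. The median MFEI was 1.0 in conserved, 1.1 in NB-LRR-regulating and 1.0 in less conserved families. The less conserved hairpins were the more variable, with an MFEI of 0.4 to 2.0 against 0.6 to 1.4 in conserved families. These differences were not tested, since hairpins of 1 family share sequence. The 4 hairpins listed as new had spans of 143 to 172 nt, MFEI values of 0.9 to 1.4 and GC contents of 28.0% to 44.1%, all inside the range of the 344.

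Both arms were listed for 239 of the 344 hairpins (69.5%), the 5′ arm alone for 49 and the 3′ arm alone for 56. All 12 hairpins of the NB-LRR-regulating families had both arms, against 139 of 193 in conserved and 88 of 139 in less conserved families. Hairpins with both arms had more reads, with a median of 196 over both libraries against 11.5 for those with 1 arm. A hairpin's reads are the sum over its listed arms, so these medians are not independent of the number of arms. The family groups also differed in reads, with medians of 11308 in NB-LRR-regulating, 162 in conserved and 32 in less conserved families. Whether reads explain which arms were listed was not tested. Each of the 4 new hairpins had a single listed arm. In the largest families, both arms were listed in 17 of 24 hairpins of miR156, 17 of 20 of miR171 and 17 of 19 of miR166, but in 3 of 9 of miR319 and 2 of 8 of miR399. Among 362 entries whose name states an arm, 1 had the other arm in the table, miR1513a-5p on chromosome 20.

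For 169 hairpins both listed arms occurred letter for letter in the hairpin, so the ends of the duplex could be read from the deposited structure. A 3′ overhang of 2 nt, the usual product of a Dicer-like enzyme, was present at the base of the stem in 109 and at the loop side in 114. Both ends had it in 98 (58.0%), and 120 had 1 to 3 nt at both ends. In 72 of the 98, both arms were 21 nt long. A median of 43 bases lay between the arms, and miR167c on chromosome 7 had the widest gap, 315 bases. In MIR5038a, MIR2916 and MIR4358 the listed arms overlapped each other, by 17, 6 and 5 bases. The duplex with 2-nt overhangs at both ends was found in 76 of 114 hairpins of conserved families, 7 of 9 of the NB-LRR-regulating and 15 of 46 of the less conserved families. It was also more frequent at higher read numbers, with 57 of 80 hairpins of at least 1000 reads, 22 of 38 between 100 and 1000, 16 of 39 between 10 and 100, and 3 of 12 under 10. In the sequences printed above, miR3522, MIR1507a, miR397a and miR4416c had 2 nt at both ends, and miR408a had 1 nt at both. miR156a with MIR156o-p3 had 3 nt at the base and 2 nt at the loop. In miR5767 the listed arms were offset by 13 and 12 nt, so they did not form such a duplex in the deposited structure.

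**Figure D3:**
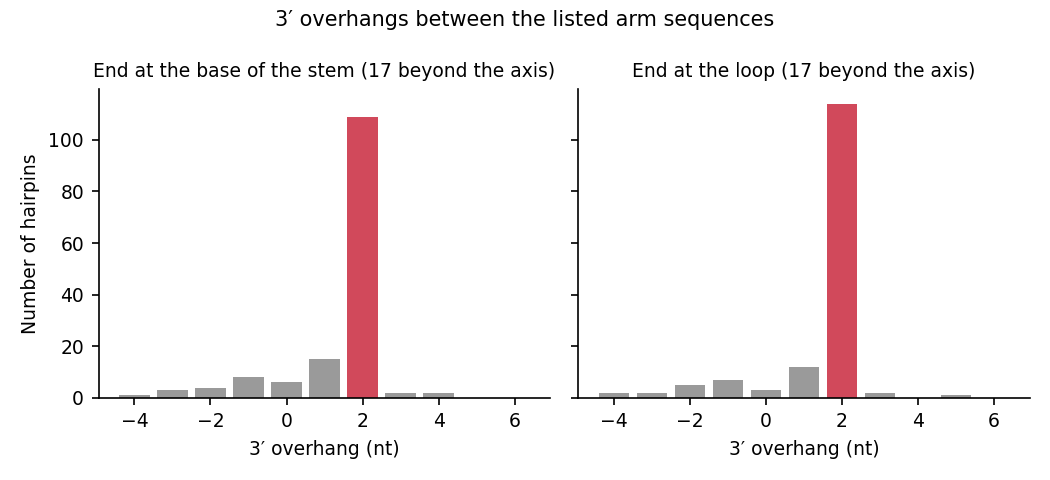
Number of hairpins (y axis) by the length of the 3′ overhang in nt (x axis) at the base of the stem (left) and at the loop (right), among the 169 hairpins with both arms found exactly. The red bars, 109 and 114 hairpins, mark 2 nt. Negative values are recessed 3′ ends, and values beyond the axis are counted in each panel's title.

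The reads of both libraries, summed, divided unevenly between the arms of nearly every hairpin. Of the 239 hairpins with both arms, 208 had at least 10 reads. In these, 107 had more reads on the 5′ arm and 100 on the 3′ arm, and 1, miR4368b, had 12 on each. The arm with more reads held a median of 94.5% of them (92.0 to 96.0). It held at least 90% in 126 hairpins, 75 of them 5′ and 51 of them 3′, at least 99% in 51, and under 60% in 18. In the 65 such hairpins whose sequences were listed at no other hairpin, the median was 87.9%, below the interval of all 208. The median was 96.3% in conserved, 87.7% in NB-LRR-regulating and 90.9% in less conserved families.

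Summed over the 239 hairpins, 5′ arms held 94.5% of the reads, and 63.8% without miR3522. This sum adds the entry of a sequence at each hairpin that lists it. It repeats reads if each entry holds all of a sequence's reads, but not if each holds a share. Over all distinct listed sequences, each counted once, 5′ sequences held 96.5% of the reads, and 66.8% without miR3522. If entries hold shares, that count leaves out the shares listed at the other hairpins. Which of these applies is not known. In miR3522 the 5′ arm had 4866673 reads in the chilled and 3391614 in the control library, and the 3′ arm had 8315 in the chilled and 5505 in the control library. The next hairpins by reads were of several kinds. miR1510b, of a family that targets NB-LRR transcripts, had 74332 reads of its 5′ arm in the chilled and 113528 in the control library. Its 3′ arm had 64.5 in the chilled and 73 in the control library. miR408a, which targets transcripts of copper proteins, had reads on both arms, 65.2% of them on the 5′. miR167c, which targets auxin response factors, had 41383 reads of the 5′ arm in the chilled library at each of its hairpins on chromosomes 7 and 10. miR1509a had 99.95% of its reads on the 5′ arm, and miR1508a had 99.4% on the 3′.

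**Figure D4:**
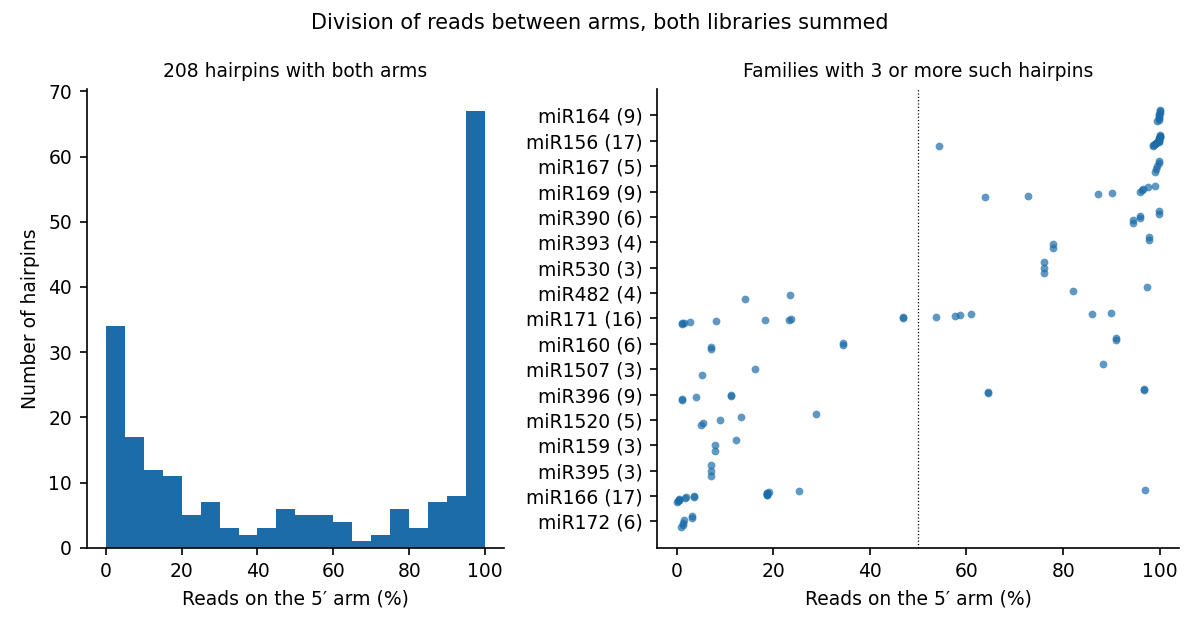
Percent of a hairpin's reads on its 5′ arm, both libraries summed. The left panel counts the 208 hairpins with both arms and at least 10 reads (y axis) by that percent, and the right panel shows each hairpin of the 17 families with 3 or more of them, 1 point per hairpin, with the number in brackets. Most points sit near 0 or 100, while miR166, miR171, miR160, miR396, miR482 and miR1507 have points on both sides of the dotted line at 50%.

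Members of a family mostly used the same arm. Of 17 families with at least 3 such hairpins, 11 had the same arm ahead in every one; members often list the same sequence and are then not separate evidence. The 5′ arm was ahead in all hairpins of miR156, miR164, miR167, miR169, miR390, miR393 and miR530. The 3′ arm was ahead in all hairpins of miR159, miR172, miR395 and miR1520. In miR166 the 3′ arm was ahead in 16 of 17, and the exception, miR166a-5p with MIR166l-p3 on chromosome 6, had 96.8% on the 5′ arm. In miR171 the 5′ arm was ahead in 6 of 16, with 5′ shares of 1.18% to 90%.

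Other families had hairpins on both sides. In miR160 and miR396, the same 5′ sequence was listed with different partners. The 5′ sequence of miR160a, which targets auxin response factors, was listed at 6 hairpins with 59.8 reads at each. It faced 768.5 reads on the 3′ arm in 2 of them, 113.5 in 2 and 6 in 2, so its share ran between 7.22% and 90.9%. In miR396, which targets growth-regulating factors, the 5′ sequence of miR396b had 43.7 reads at each hairpin and faced 4089.5 reads in some and 1.5 in others. In miR482 and miR1507 the sides differed between hairpins with different 3′ sequences, and hairpins that list the same one were on the same side. In miR482 the share of the 5′ arm was 14.2% and 23.6% where the 3′ sequence was miR482b, and 82.0% and 97.4% where it was miR482a. In miR1507 it was 16.3% and 5.30% in the hairpins with miR1507a and 88.3% in miR1507c.

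The more abundant strand began with T in 124 of 207 hairpins, against 56 of 207 for the less abundant strand. It began with G in 14, against 60 for the less abundant strand. A sequence listed at several hairpins was counted at each of them, so these are not 207 separate sequences. Plant AGO1 is known to prefer a 5′ uridine, written T here. A length of 21 nt was found for 145 of the more abundant and 132 of the less abundant strands, and 24 nt for 20 of the more abundant and 17 of the less abundant strands. In 138 hairpins, 1 arm carried a miRNA name and the other a name of the form p5 or p3, which the authors gave to the partner strand. The partner had more reads in 14 of these. The largest case was miR4416c on chromosome 2, where MIR4416c-p3 had 615 reads in the chilled and 1877 in the control library, while miR4416c had 63.3 in the chilled and 85 in the control library. In a miR482 hairpin on chromosome 18, MIR482c-p5 had 545.5 reads in the chilled and 478.5 in the control library, while miR482a-3p had 131 in the chilled and 93.5 in the control library.

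The authors' degradome table, from the library whose label gives a later stage, named a sequence of 169 of the 344 hairpins. It named the more abundant arm of 86 of the 207 hairpins with unequal arms, the less abundant arm of 44, and both of 13. Only the less abundant arm was named in 31, among them miR160a-5p, miR396b-5p, miR482b-5p and the 3′ arms of miR1510a and miR1510b. In miR1510b this arm had 137.5 reads of 187997 over both libraries.

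The libraries were then set side by side for the division between arms. Over the 172 hairpins with at least 10 reads in each library, the 5′ share of the chilled library differed from that of the control library by a median of 1.74 points in size (1.20 to 2.71). A difference of at least 10 points occurred in 23 of the 172 (13.4%), with the 5′ share higher in the chilled library in 10 and lower in 13. The exact 95% intervals of the shares, which cover counting error only, stayed apart in 12 of the 23. In 6 of the 172 the arm with more reads changed. Of the 51 hairpins whose sequences were listed nowhere else, 9 passed 10 points, and of the 114 with at least 100 reads in each library 13 did.

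The largest difference was in the miR156 hairpin on chromosome 17 with MIR156o-p3. Its 5′ arm, miR156a, had 3431 reads in the chilled and 10368 in the control library, and its 3′ arm had 7878 in the chilled and 3754 in the control library. The 5′ share was 30.3% (29.5 to 31.2) in the chilled and 73.4% (72.7 to 74.1) in the control library. The majority thus lay on opposite arms in the libraries. The 5′ sequence was listed at 12 hairpins, so the 5′ reads cannot be assigned to this hairpin. The 3′ sequence was listed at this one alone, but its reads were fractions, 7877.58 in the chilled and 3753.5 in the control library. No source used here says how these fractions arose, so the 3′ reads cannot be firmly assigned to this hairpin either.

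In miR5767 on chromosome 16, both sequences were listed at no other hairpin. The 5′ arm had 563 reads in the chilled and 1039 in the control library, and the 3′ arm 1010 in the chilled and 476 in the control library. The 5′ share was 35.8% (33.4 to 38.2) in the chilled and 68.6% (66.2 to 70.9) in the control library. This hairpin had an MFEI of 0.5 and, as given above, arms that did not pair with 2-nt overhangs.

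The miR397a hairpin on chromosome 13 went the other way. miR397 targets laccases, copper enzymes of the cell wall. Its 5′ arm had 2070.5 reads in the chilled and 1136.5 in the control library, and its 3′ arm 1236 in the chilled and 2459 in the control library. The 5′ share was 62.6% (60.9 to 64.3) in the chilled and 31.6% (30.1 to 33.1) in the control library. The log2 ratio of chilled to control was 0.62 for the 5′ arm and -1.24 for the 3′ arm. The 5′ sequence was also listed at the miR397 hairpin on chromosome 8, so its reads cannot be assigned to either. That hairpin had a 5′ share of 99.6% in the chilled and 99.2% in the control library.

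In miR408a on chromosome 2, both sequences were listed at no other hairpin. Its 5′ share was 72.2% (71.9 to 72.5) in the chilled and 57.7% (57.3 to 58.0) in the control library. Its 5′ arm had 62516 reads in the chilled and 46442 in the control library, and its 3′ arm 24069 in the chilled and 34071 in the control library.

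MIR162c-p5 with miR162a on chromosome 5, whose mature strand targets the Dicer-like gene DCL1, had a 5′ share of 72.4% (67.1 to 77.3) in the chilled and 45.9% (40.2 to 51.8) in the control library. The miR162a sequence was also listed on chromosome 6, opposite MIR162a-p5, where the 5′ share was 2.27% in the chilled and 1.22% in the control library. The hairpins of miR168a on chromosomes 9 and 1, which targets AGO1, had 90.9% (89.97 to 91.9) in the chilled and 79.6% (77.7 to 81.4) in the control library. These 2 hairpins list sequences with the same reads and are not separate evidence. In MIR1507a on chromosome 13 the 5′ share was 10.2% (9.87 to 10.5) in the chilled and 28.7% (28.0 to 29.4) in the control library; its 3′ sequence was also listed at MIR1507b. In MIR4996 on chromosome 15 it was 33.1% (32.5 to 33.7) in the chilled and 17.8% (17.4 to 18.2) in the control library. The 4th by size, miR169k with miR169l-3p, rested on 50.8 reads in the chilled and 16.8 in the control library, and its intervals overlapped.

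**Figure D5:**
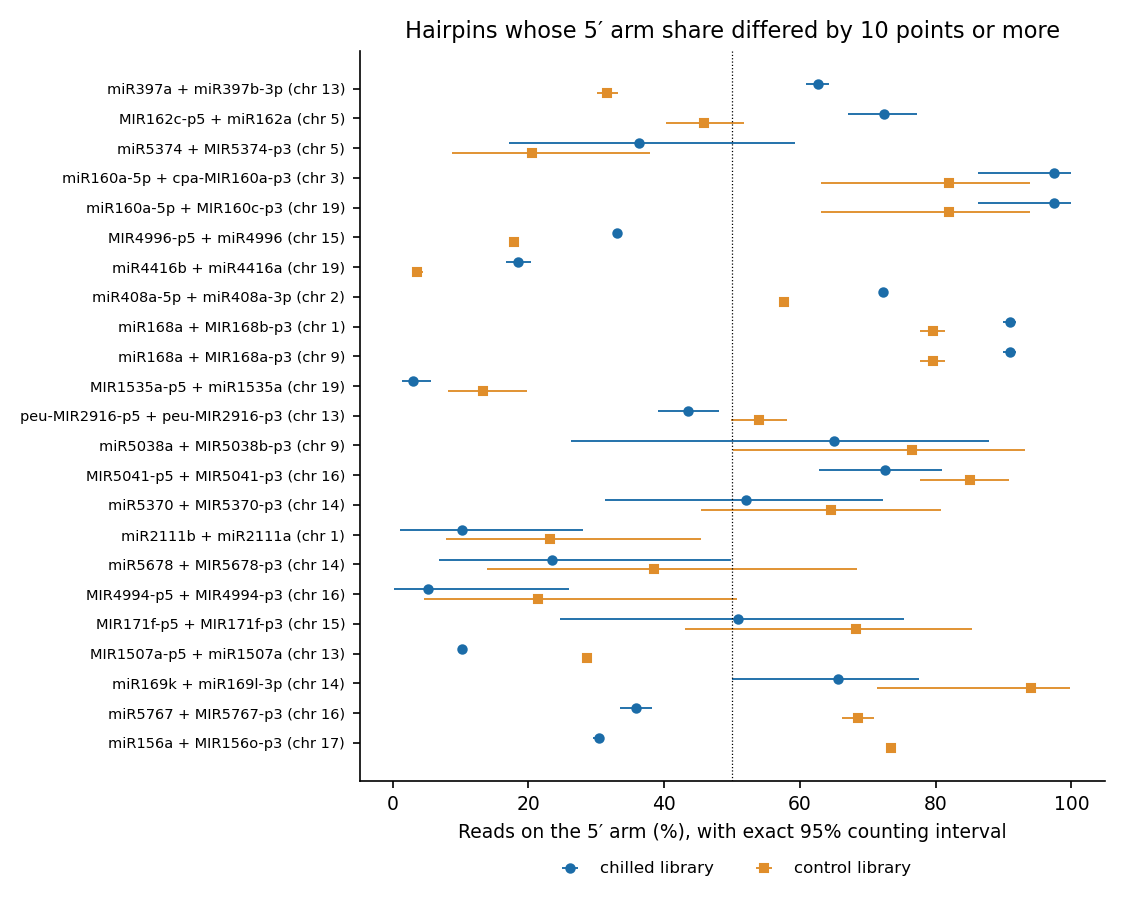
Percent of reads on the 5′ arm (x axis) in the chilled library (blue circles) and the control library (orange squares) for the 23 hairpins whose share differed by at least 10 points, with exact 95% intervals of counting error. Rows are ordered by chilled minus control, from miR397a at the top to miR156a with MIR156o-p3 at the bottom. Intervals are apart in 12 of the 23.

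In 17 of the 23 hairpins the arms' log2 ratios lay on opposite sides of 0. Over all 172 hairpins both arms were on the same side of 0 in 102. The 23 were chosen for a difference in arm share, which itself favours opposite sides, so their count is not separate evidence. Of the 19 among the 23 whose arms were found exactly, 9 had 2-nt overhangs at both ends; over the 136 such hairpins with enough reads, 86 had them.

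The summed reads of a hairpin were compared after TMM scaling, as a log2 ratio of chilled to control with a pseudocount of 1. Of 241 hairpins with at least 10 scaled reads in a library, 33 (13.7%) were at least 2-fold higher in the chilled library and 33 (13.7%) at least 2-fold lower, around a median log2 ratio of 0.06. The other 103 hairpins were under that minimum. The 2-fold limit was applied to the ratio alone, so some hairpins past it have a counting interval on both sides of 0. Examples are MIR4340 (-0.06 to 2.40) among the higher and MIR5032 (-2.95 to 0.28) among the lower. With 1 hairpin kept per family, 12 of 94 were higher and 9 lower. Of the higher hairpins, 10 were the miR164 precursors, which share a sequence with 2634 reads in the chilled and 584 in the control library, and 7 were miR169 precursors. miR164 targets NAC transcription factors. Of the lower ones, 12 were miR156 precursors, 11 of them sharing miR156a, and 4 were precursors of miR393, which targets auxin receptors.

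Hairpins whose sequences were listed nowhere else were among both. miR4376 on chromosome 13 had 2487 reads in the chilled and 897 in the control library, a log2 ratio of 1.22 (1.11 to 1.34). The miR156r hairpin on chromosome 16 had 137.4 reads in the chilled and 2402.1 in the control library, a log2 ratio of -4.36 (-4.64 to -4.13). miR4416c had 678.3 in the chilled and 1962 in the control library, -1.78 (-1.91 to -1.65). The fractions in miR156r and miR4416c have no stated origin, so being listed at 1 hairpin does not firmly assign their reads to it. miR1507c on chromosome 9 had a log2 ratio of -1.02 (-1.11 to -0.93). The other miR1507 hairpins share the miR1507a sequence, with 1.01 (0.98 to 1.04) for MIR1507b and 0.77 (0.74 to 0.79) for MIR1507a, which was under 2-fold. At 0 reads there were 4 hairpins in the chilled and 32 in the control library, which allows up to 3 reads each.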

How the data were processed

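Per the labels' protocols, each TruSeq small RNA library took about 1 μg of total RNA and was read from 1 end. No source used here names the aligner, folding program, miRNA caller or genome build. Per the file headers, the deposited known-miRNA table gives raw reads per entry, many of them fractions, here called expected counts for want of a source on how the fractions arose. They were rounded only for scaling and intervals. The same deposited table gives GC content in percent, and dG and MFEI as scores. The authors' degradome table, with its signal (TPB), alignment score and p-value, was used only for which miRNAs it names. A further 6 lines of the known table were blank and are not analysed here. Coordinates are as deposited, counted from 1. Lengths of overhangs were read from the deposited structures, pairing searched up to 6 bases inward. Identity is 100 minus the edit distance over the longer sequence, in percent. Libraries were scaled with edgeR 4.0.16 (TMM, R 4.3.3); DESeq2 1.42.0 size factors were an alternative. With 1 library in each, the conditions were not tested against each other. Shares have exact Clopper-Pearson and ratios exact conditional binomial intervals at 95%; intervals of medians come from order statistics. PCR reads without molecular identifiers are not independent molecules, so they cover counting error only. RNAfold 2.7.2 refolded the hairpins. Hairpins named were the 10 with most reads, the extremes of each property, every neighbour pair, and those with the most even, most one-sided and most different arms; others named were chosen after their values were seen. The members and lists were chosen with earlier results of these data known. The scripts were tested on simulated hairpins.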

Additional observations from a re-analysis of the deposited data

How the results depend on the processing

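Of 61 alternatives over 14 results, 38 kept the value within the interval of its median or within 1.5 times the count. The hairpins with a neighbour numbered 18 within 3 kb and 74 within 50 kb, against 38 within 10 kb. Keeping 1 hairpin per family moved the median dG to -50.9 and the median GC content to 39.8%, and the full span moved the median length to 118. Arms with at least 10 reads left 117 hairpins with both arms, against 239. With sequences listed at 1 hairpin, the median share of the arm with more reads was 87.9%, and the pooled 5′ share was 98.1%. At least 90% of reads lay on 1 arm in 31 of 65 such hairpins, against 126 of 208. Of 81 such hairpins with enough scaled reads, 14 were 2-fold higher and 10 lower. In arm share, 9 of 51 passed 10 points. A threshold of 99% left 51 of the 208 hairpins. The pooled 5′ share was 94.8% in the chilled library, 94.2% in the control library and 63.8% without miR3522. A minimum of 100 scaled reads left 14 hairpins higher and 17 lower of 139, against 33 each way of 241. Keeping 1 hairpin per family left 12 higher and 9 lower of 94. The same table total gave 28 higher and 48 lower, and unscaled reads 47 higher and 28 lower. A minimum of 100 reads in each library left 13 of 114 hairpins past 10 points, with a median of 1.11 points. With 2-nt overhangs at both ends, 9 of 86 passed 10 points, against 23 of 172 in the main setting. Fewer hairpins enter most of these alternatives by construction; other causes were not tested. Taking 1 hairpin per family for the 2-fold counts, each arm pair once, 2-nt overhangs and the full span were chosen after seeing the data. Replicates could not be left out, since each condition had 1 library. No paired analysis was possible because each condition had 1 library. Hairpins with few reads limit the arm shares: 31 of the 239 with both arms had under 10.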
